A study of Mus musculus with 4 samples.

Results

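The genes described here encode the ligands, the receptors and the SMAD proteins of transforming growth factor β (TGF-β) signaling. They are Tgfb1, Tgfb2 and Tgfb3, Tgfbr1, Tgfbr2 and Tgfbr3, and Smad3, Smad6 and Smad7, chosen by gene symbol. The choice was made with earlier results of these data known. These 9 genes are among 56748 genes with a read count, and all 9 passed the filter on low counts that left 15167 genes for testing. Lung RNA was sequenced from female BALB/cJ mice that received 4T1-FLuc cells, a luciferase-marked line of the mouse triple-negative breast cancer (TNBC) line 4T1, by tail vein at 7 weeks of age. The control group (saline in the titles, PBS control in the treatment label) had 2 libraries and was likewise harvested after 3 weeks. The treated group (cmLumi-Olap in the labels, cmLumiOpto/PARPi below) had 2 libraries and was harvested after 3 weeks of treatment. Its mice were given an antibody-tagged viral vector for cmLumiOpto, a Nanoluciferase that lights a channel in the inner mitochondrial membrane, with the luciferin ViviRen (2 mg/kg) and the PARP inhibitor olaparib (50 mg/kg). The vector finds tumor cells through an antibody to CD276. All mice of both groups carried the injected line, and no library of cmLumiOpto alone or olaparib alone was analysed, so the agents cannot be told apart.

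TGF-β is secreted in a latent complex and, once released, binds the type II receptor TGFBR2, which then activates the type I receptor TGFBR1. The coreceptor TGFBR3 (betaglycan) presents the ligands, above all TGF-β2, to TGFBR2. TGFBR1 phosphorylates SMAD2 and SMAD3, which enter the nucleus with SMAD4 and bind DNA, while SMAD7 and SMAD6 are inhibitory SMADs that are themselves induced by the pathway. In breast cancer the pathway is known both for growth arrest of epithelium and for matrix production, epithelial-mesenchymal transition and spread to the lung.

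The libraries held between 15263375 and 16755228 counts, so that 3 counts, taken as the detection floor, equalled 0.179 to 0.197 CPM (counts scaled to library size) by these totals, a limit of counting error only. All other CPM values were scaled with TMM factors as well. No label ties a library to a batch. Epithelial keratins of 4T1 cells, which lung epithelium also makes, ranged widely in level. Krt8 was the highest, at 998 to 1640 CPM, while Krt14 was at 42.9 to 54.1 CPM and Krt5 at 0 to 2.59 CPM. Lung markers were present in every library, with Sftpc, the surfactant gene of alveolar type 2 cells, at 176 to 6153 CPM. Markers of lung cells were thus present although the labels name harvested tumor cells. In such bulk RNA, fewer cells of a type and less RNA per cell cannot be told apart.

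A promoter entry was at hand for 6 of the 9 members. Tgfb3, Tgfbr3 and Smad7 had none, although Tgfbr3 and Smad7 were also lower in both treated libraries. The promoters of 4 members are shown. They are those of Tgfb2, Tgfbr2 and Smad3, lower by the margins below, and as the contrast that of Tgfb1, the ligand closest to its saline level. Each is the 250 bases before the annotated start, from RefSeq on GRCm38.p6 (a C57BL/6J genome, not BALB/c) and read 5′ to 3′ on the gene's strand. Capitals mark 4 motifs that were searched on both strands and did not overlap in these windows. The core of the element that SMADs bind is spelled CAGAC. A GC box, bound by SP1, is spelled GGGCGG. The E-box searched has the letters CACGTG. The remaining motif, known as the TATA box, is spelled TATAAA. The positions are chr7:25686752-25687001 on the plus strand for Tgfb1 and, on the minus strand, chr1:186705990-186706239 for Tgfb2, chr9:116175364-116175613 for Tgfbr2 and chr9:63757995-63758244 for Smad3.
Tgfb1: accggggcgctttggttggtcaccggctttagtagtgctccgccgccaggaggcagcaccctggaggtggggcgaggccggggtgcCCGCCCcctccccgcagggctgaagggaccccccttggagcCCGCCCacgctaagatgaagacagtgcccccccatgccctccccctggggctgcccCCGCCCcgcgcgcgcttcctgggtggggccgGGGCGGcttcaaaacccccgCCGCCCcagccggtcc
Tgfb2: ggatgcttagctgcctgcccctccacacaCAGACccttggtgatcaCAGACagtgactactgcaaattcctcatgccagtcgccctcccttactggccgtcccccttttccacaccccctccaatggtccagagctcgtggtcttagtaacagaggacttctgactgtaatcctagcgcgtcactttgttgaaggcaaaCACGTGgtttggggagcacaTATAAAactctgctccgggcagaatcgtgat
Tgfbr2: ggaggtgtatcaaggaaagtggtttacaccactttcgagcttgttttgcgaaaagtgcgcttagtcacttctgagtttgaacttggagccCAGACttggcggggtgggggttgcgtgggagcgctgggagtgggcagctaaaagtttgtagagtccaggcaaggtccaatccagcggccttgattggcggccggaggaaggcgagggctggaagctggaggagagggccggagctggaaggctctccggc
Smad3: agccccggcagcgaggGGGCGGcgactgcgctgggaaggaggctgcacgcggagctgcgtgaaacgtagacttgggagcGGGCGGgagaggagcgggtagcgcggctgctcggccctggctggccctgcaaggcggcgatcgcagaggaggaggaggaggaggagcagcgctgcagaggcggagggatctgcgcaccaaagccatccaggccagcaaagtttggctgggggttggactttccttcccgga
The promoters of both ligands had little in common. Tgfb1 held 5 GC boxes, no TATA box and 75.2% G and C, whereas Tgfb2 held no GC box, 1 TATA box 31 bases before the start, 1 E-box, 2 CAGAC matches and 53.6% G and C. Tgfbr2 held 1 CAGAC match and Smad3 held 2 GC boxes and no CAGAC match. Of 32851 mouse promoter windows of the same length, 42.2% held CAGAC, 32.7% a GC box, 12.4% a TATA box and 6.02% an E-box, so a CAGAC match is common. A further motif, the cAMP response element (TGACGTCA), present in 1.55% of windows, was in none of the windows of the 6 members that had an entry, the others being Tgfbr1 and Smad6. A match is a description of letters and shows no binding.

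Among the ligand genes, Tgfb2 was lower by close to the same amount in both treated libraries, while Tgfb1 and Tgfb3 were at 87.8% and 84.1% of their saline means. Tgfb2 (chromosome 1, 186622792 to 186705989 on GRCm38, minus strand), whose product is needed for heart development, had 23.3 and 25.5 CPM in the saline libraries. It had 13.01 and 13.24 CPM after cmLumiOpto/PARPi. The groups were well apart, with means of 24.4 ± 1.52 and 13.1 ± 0.160 CPM (SD, n = 2 each). Its counts were 372 and 374 against 226 and 220, and the exact 95% Poisson intervals for counting error alone ran from 335 to 414 and from 192 to 257. The log2 fold change was -0.89 (SE 0.19, 95% interval -1.35 to -0.43), a level 1.86-fold lower, with an adjusted p of 0.138 (edgeR, quasi-likelihood).

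Tgfb1 (chromosome 7, 25687002 to 25705077, plus strand), the main ligand of immune and stromal cells, had 159 CPM in each saline library and 124 and 154 CPM after treatment. Both treated libraries lay below both saline libraries, but the second one by a margin that was lost when libraries were scaled by their totals alone. The log2 fold change was -0.19 (SE 0.15, 95% interval -0.57 to 0.19, edgeR adjusted p = 0.509). Tgfb3 (chromosome 12, 86056745 to 86079041, minus strand), known for its part in palate fusion and in scarring, had 141 and 112 CPM in saline and 126 and 86.9 CPM after treatment. Here the groups overlapped, and within each group replicate 1 was the higher library. Its log2 fold change was -0.25 (SE 0.22, 95% interval -0.80 to 0.30, edgeR adjusted p = 0.545).

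The receptors TGFBR2 and TGFBR3 had less RNA in both treated libraries, while for TGFBR1 the libraries overlapped. Tgfbr2 (chromosome 9, 116084293 to 116175360, minus strand), the ligand-binding kinase, had 310 and 336 CPM in saline and 208 CPM in each treated library. The treated libraries nearly coincided and lay far under the saline libraries, at a log2 fold change of -0.64 (SE 0.14, 95% interval -0.97 to -0.30, edgeR adjusted p = 0.138). Tgfbr3 (chromosome 5, 107106570 to 107289629, minus strand), the coreceptor, had 83.5 and 106 CPM in saline and 61.4 and 54.7 CPM after treatment. Its groups did not overlap either, with a log2 fold change of -0.71 (SE 0.17, 95% interval -1.12 to -0.29, edgeR adjusted p = 0.138). Tgfbr1 (chromosome 4, 47353222 to 47414931, plus strand), the signaling kinase, had 131 and 152 CPM in saline and 133 and 123 CPM after treatment. These ranges overlapped, and the log2 fold change was -0.14 (SE 0.14, 95% interval -0.49 to 0.21, edgeR adjusted p = 0.595).

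Smad3, the DNA-binding effector, had the lowest log2 fold change of the 9 genes with all libraries in the fit. Without treated replicate 1 that of Tgfb2 was lower, at -0.88 against -0.83 for Smad3. Smad3 (chromosome 9, 63646767 to 63757994, minus strand) had 301 and 365 CPM in saline and 131 and 187 CPM after treatment. The higher treated library was still well under the lower saline library, and the log2 fold change was -1.06 (SE 0.22, 95% interval -1.60 to -0.53, edgeR adjusted p = 0.138), a level 2.09-fold lower. Smad7 (chromosome 18), the feedback inhibitor that blocks TGFBR1, had 66.8 and 72.5 CPM in saline and 49.97 and 45.73 CPM after treatment. It was lower in both treated libraries, by a log2 fold change of -0.54 (SE 0.14, 95% interval -0.89 to -0.20, edgeR adjusted p = 0.145). Smad6 (chromosome 9, 63953076 to 64022059, minus strand), the inhibitor better known in the bone morphogenetic protein (BMP) branch and in endothelium, had 15.3 and 11.0 CPM in saline and 27.7 and 9.51 CPM after treatment. One treated library was the highest and the other the lowest of all, from 482 counts (exact 95% Poisson interval 440 to 527) and 158 counts (134 to 185). The log2 fold change of 0.50 (SE 0.51, 95% interval -0.74 to 1.75, edgeR adjusted p = 0.597) rested on treated replicate 1, and without that library it was -0.47. In that library the endothelial markers summed to 796 CPM, against 433 to 542 CPM in the others. This was not particular to endothelium, since the sums of airway, alveolar, T-cell and B-cell markers were also highest there. Those of tumor, fibroblast, macrophage, cardiac muscle and cycling markers were lowest there. The part of any of these in the Smad6 value was not tested.

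**Figure D1:**
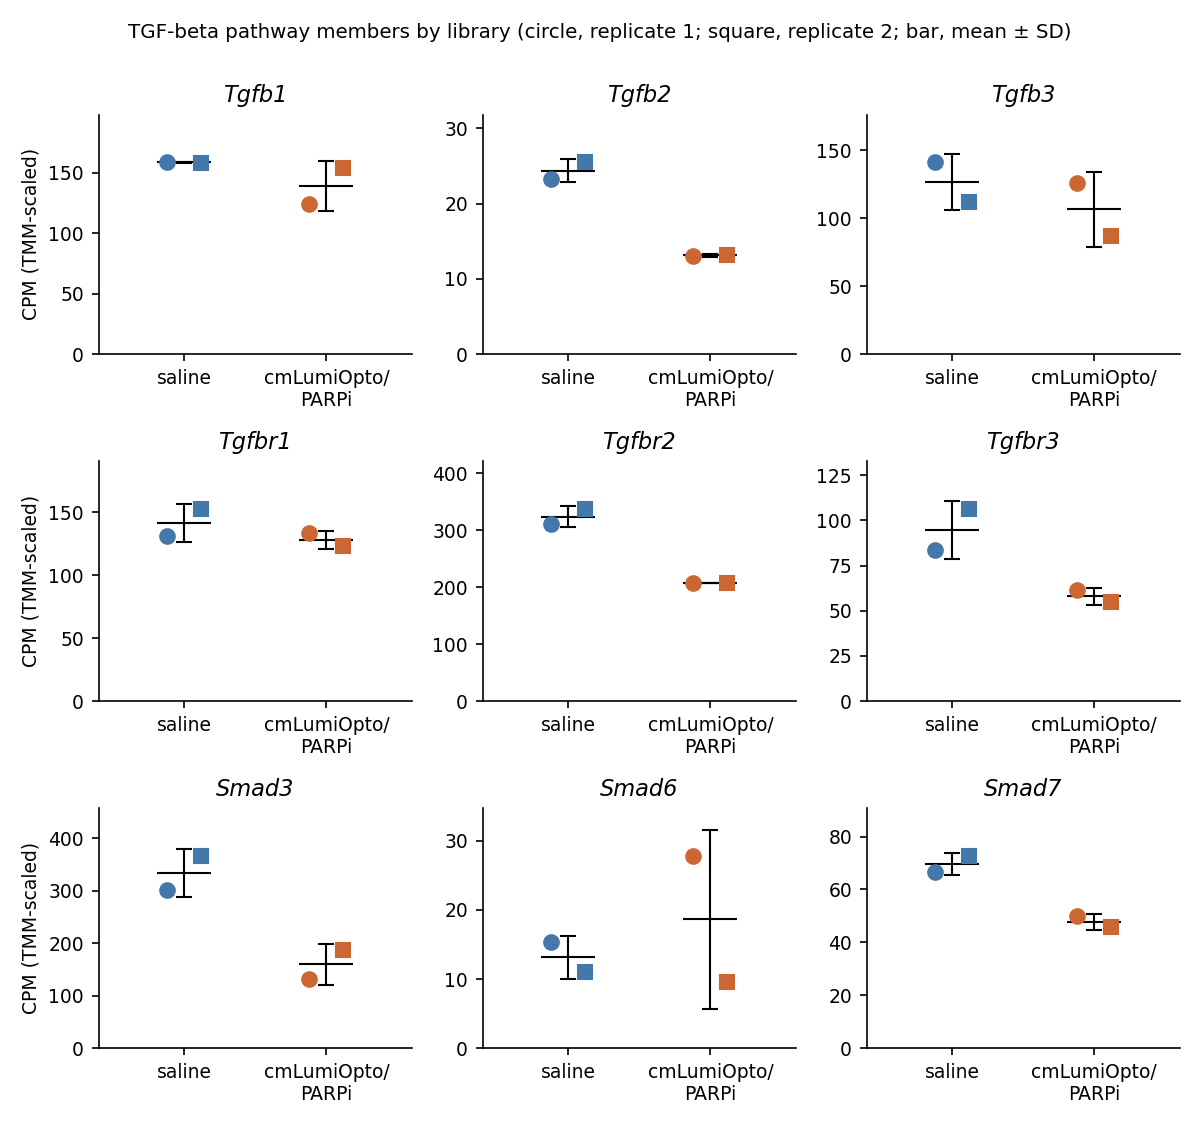
CPM of each gene (vertical axes start at 0) in the saline and cmLumiOpto/PARPi libraries, with the mean and SD of the 2 libraries of a group. Tgfb2, Tgfbr2, Tgfbr3, Smad3 and Smad7 separate clearly, Tgfb1 narrowly, and Smad6 spreads from 9.51 to 27.7 CPM within the treated group.

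By edgeR's quasi-likelihood test 0 of the 9 genes, and 0.0% of all 15167 genes tested, had an adjusted p under 0.05, and the smallest adjusted p of all genes, 0.138, was shared by several members. At an unadjusted p under 0.05 there were 5 of 9, Tgfb2, Tgfbr2, Tgfbr3, Smad3 and Smad7, all lower, while 21.2% of all tested genes had such a p, 12.0% lower and 9.21% higher. DESeq2 gave 4 of the 9 an adjusted p under 0.05 (the same genes without Smad7), where 7.71% of the 13108 genes with an adjusted p were called, 5.23% lower. Without the filter on low counts edgeR called the same 4, beside 7.86% of all genes (4.19% lower). With the sample number as a block it called those 4 and Smad7, beside 12.0% of all genes (7.05% lower). With the block and a length offset it called the same 5, beside 8.14% (5.15% lower). Nothing in the labels pairs libraries of the same sample number beyond that number, so the block has no known basis. Both treated libraries lay under both saline libraries for 6 of the 9, compared with 27.8% of all tested genes, and above them for 0 of the 9, compared with 27.4%, and 55.2% of all tested genes did not overlap in either direction. The log2 fold change was below 0 for 8 of the 9, against 48.0% of all tested genes. The median log2 fold change of the 9 genes was -0.54, beside 0.02 over all tested genes. Because the 9 were chosen with earlier results of these data known, these shares describe them and test nothing about the set. For a single gene, exact permutation of 2 against 2 libraries cannot give a two-sided p under 0.333.

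**Figure D2:**
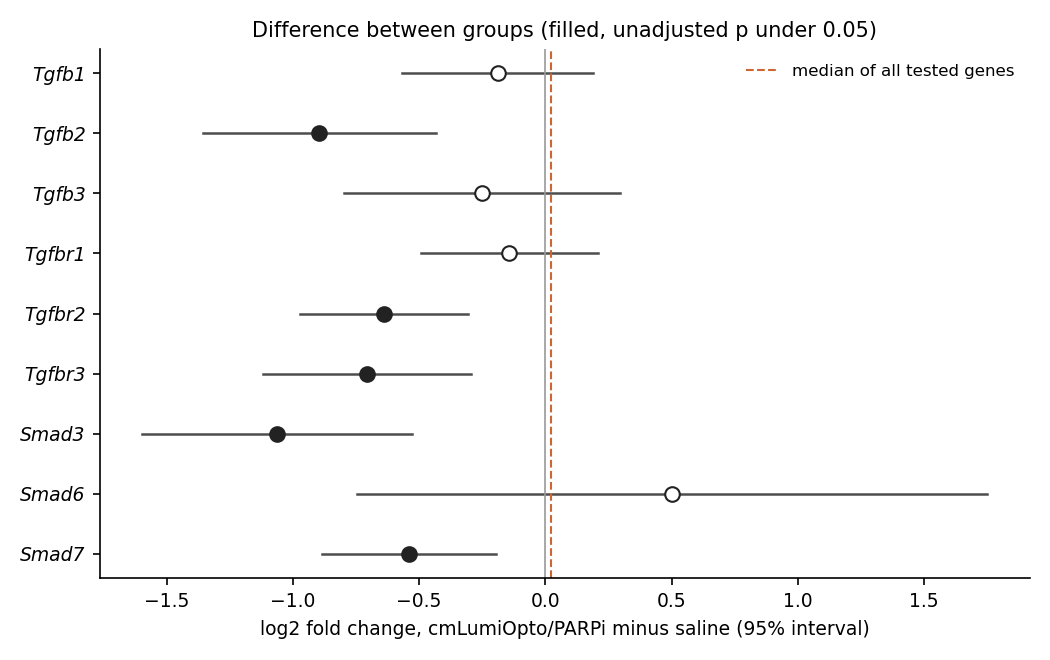
Log2 fold change of each gene (points) with its 95% interval, filled where the unadjusted p was under 0.05, and the median of all tested genes (dashed line, 0.02). Intervals of the 5 filled genes stay below 0, and that of Smad6 runs from -0.74 to 1.75.

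Gene length bears on these values, since log2 fold changes were lower in longer genes. With the tested genes cut into 5 classes of like size by length, their median was 0.31 in the shortest class and -0.27 in the longest. Tgfbr2, with 8187 bases, belonged to the longest class, Tgfb1, Tgfb2, Tgfbr1, Tgfbr3 and Smad3 to class 4, Smad7 to class 3, and Tgfb3 and Smad6 to class 2. With the length trend of each library taken out as an offset, the log2 fold changes were -0.86 for Tgfb2, -0.49 for Tgfbr2, -0.64 for Tgfbr3, -1.03 for Smad3 and -0.59 for Smad7, all with an edgeR adjusted p between 0.290 and 0.314. The same 5 genes thus stayed lower, Tgfbr2 by less. Tgfb3 had a log2 fold change of -0.39 with the offset (edgeR adjusted p = 0.421) and -0.25 without it.

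**Figure D3:**
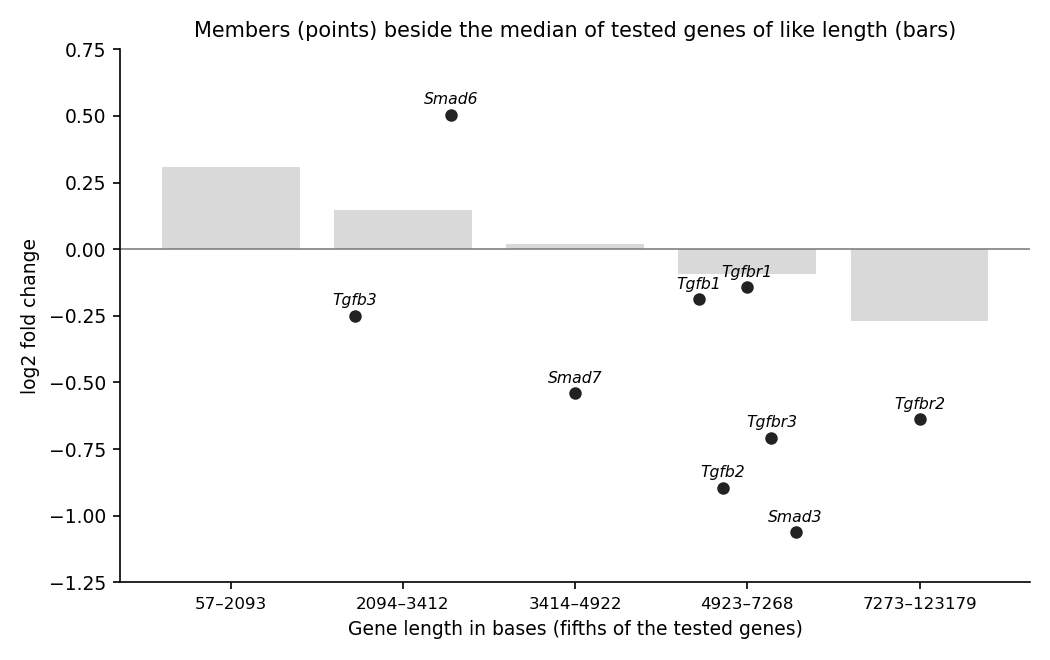
Log2 fold change of each gene (points) by gene length in bases, beside the median of all tested genes of each of 5 length classes (bars, from 0.31 to -0.27). The 5 lower genes lie well under the bar of their own class, and Tgfb1 and Tgfbr1 lie close to it. Tgfb3, whose groups overlapped, also lies under its bar (-0.40 from it, beside -0.37 for Tgfbr2), and Smad6 lies above its bar.

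Levels can be compared between genes only per length, as CPM per kilobase. In the saline libraries Smad3 led with a mean of 60.1, followed by Tgfbr2 (39.5), Tgfb3 (37.4), Tgfb1 (31.5), Tgfbr1 (21.7), Smad7 (15.4), Tgfbr3 (14.5), Tgfb2 (4.21) and Smad6 (4.10 CPM per kilobase). Neighbors whose libraries overlapped, and whose order is therefore open, were Tgfbr2 with Tgfb3, Smad7 with Tgfbr3, and Tgfb2 with Smad6. In the treated libraries the top of the order closed up, with Tgfb3 at a mean of 31.5, Smad3 at 28.8, Tgfb1 at 27.6 and Tgfbr2 at 25.4 CPM per kilobase, and each overlapped the next but for Tgfbr2 and Tgfbr1 (19.6). Tgfb2 was the lowest of the 9 after treatment, at 2.27 CPM per kilobase.

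**Figure D4:**
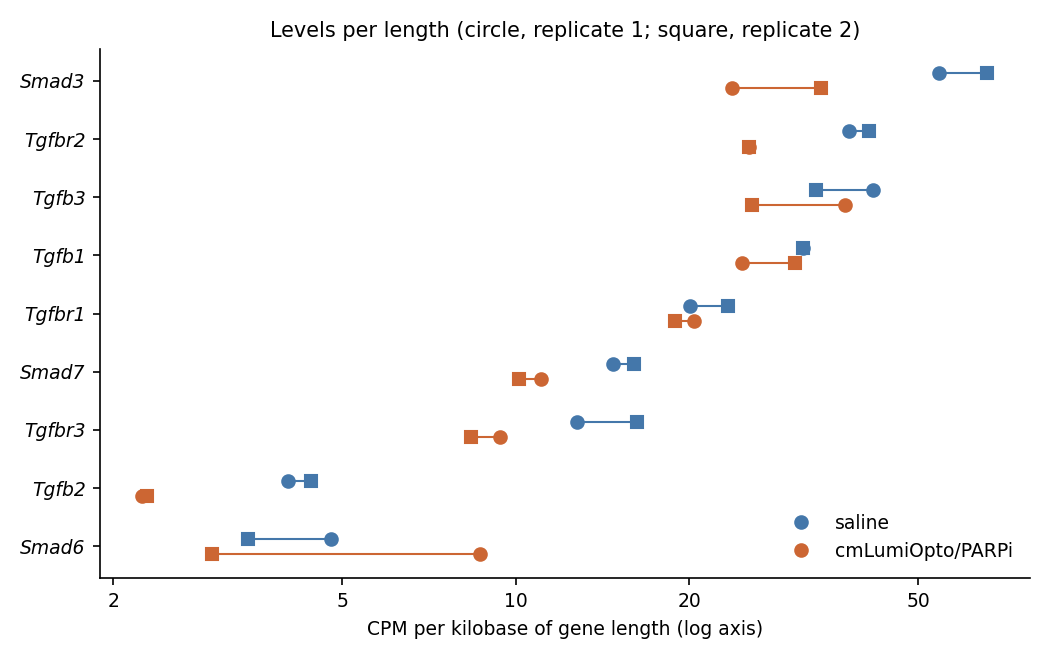
CPM per kilobase of gene length (log axis) in each library, genes ordered by their saline mean. Smad3 stands alone at the top in saline, from 54.2 to 65.9, and joins Tgfb3, Tgfb1 and Tgfbr2 after treatment.

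Ratios taken within a library do not depend on how libraries are scaled. The length trend described above does not cancel in them where the genes differ in length. Tgfb2 made up 5.22% and 6.38% of the summed per-length level of the 3 ligand genes in saline, and 3.50% and 3.90% after treatment, so its share was lower in both treated libraries. The shares of Tgfb1 (40.8% and 45.6% against 38.4% and 52.2%) and of Tgfb3 (54.0% and 48.0% against 58.1% and 43.9%) overlapped. The ratio of the type I to the type II receptor, Tgfbr1 to Tgfbr2, was 0.529 and 0.568 in saline and 0.805 and 0.743 after treatment. This ratio was higher in both treated libraries. The ratio of the inhibitor Smad7 to the effector Smad3 was 0.272 and 0.243 in saline and 0.466 and 0.299 after treatment, also without overlap, although Smad7 itself was lower. Tgfbr3 to Tgfbr2 overlapped, at 0.337 and 0.395 against 0.370 and 0.329. These ratios are descriptions of 2 libraries a group, with no test.

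The other genes of the pathway were grouped by role into 8 lists with 108 genes, of which 97 passed the filter. None was called by edgeR at an adjusted p of 0.05 (0 of 97, against 21 by DESeq2), and at an unadjusted p under 0.05 there were 34 lower and 5 higher. Over all tested genes those shares were 12.0% lower and 9.21% higher, and 7.71% were called by DESeq2. The median log2 fold change of the 97 genes was -0.33. No gene of these lists had an edgeR adjusted p under 0.138, so the values below are described as lower or higher only where both treated libraries lay on one side of both saline libraries, as they did for 55.2% of all tested genes (27.8% lower, 27.4% higher), the shares against which each count below is to be read.

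The genes of the latent complex and its activation had the lowest median log2 fold change of the 8 lists, -0.64, with 9 of 11 lower and 2 higher. Ltbp4, which anchors latent TGF-β in elastic matrix, had 256 and 318 CPM in saline and 156 and 167 CPM after treatment (log2 fold change -0.83, SE 0.16). Furin, the protease that cleaves the proprotein, had 279 and 289 CPM against 165 and 199 CPM (-0.64, SE 0.15). Itgav, the αv chain of integrins that activate latent TGF-β, had 212 and 233 CPM against 132 and 157 CPM (-0.62, SE 0.15). The higher genes were Nrros, which tethers latent TGF-β1 on macrophages and microglia, with 34.1 and 25.2 CPM against 53.0 and 42.2 CPM (0.68, SE 0.21), and Itgb6, the epithelial partner of Itgav, with 8.91 and 3.07 CPM against 16.9 and 10.5 CPM (1.19, SE 0.53).

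Of the other SMAD genes 4 of 5 were lower and 0 higher, with a median log2 fold change of -0.42. Smad4, the common partner SMAD, had 114 and 119 CPM in saline and 78.9 and 87.7 CPM after treatment (-0.48, SE 0.13). Smad2, the other effector of TGF-β, had 57.1 and 66.7 CPM against 45.7 and 48.3 CPM (-0.40, SE 0.15), so its log2 fold change was smaller than that of Smad3. Whether those differed was not tested. Smad5, a BMP effector, had 119 and 145 CPM against 89.8 and 107 CPM (-0.42, SE 0.17), and Smad9 was near the floor, at 0 to 20 counts. Among the other receptors of the superfamily the direction was mixed, with 4 of 9 lower, 2 higher and a median of -0.08. Acvr2b, an activin receptor, had 5.58 and 7.63 CPM against 3.34 and 2.53 CPM (-1.17, SE 0.36), Bmpr1a and Bmpr2 were lower with log2 fold changes of -0.46 and -0.48, and Bmpr1b and Acvr2a were higher with 1.37, at under 2 CPM, and 0.08. Eng and Acvrl1, the endothelial receptors, overlapped between the groups.

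Intracellular regulators were lower in 12 of 23 cases and higher in 3, with a median log2 fold change of -0.33. The nuclear corepressor Ski had 246 and 226 CPM in saline and 144 and 147 CPM after treatment (-0.70, SE 0.13). Pmepa1, a feedback inhibitor induced by TGF-β, had 306 and 268 CPM against 152 and 185 CPM (-0.77, SE 0.16). Traf6, a ubiquitin ligase of the branch that bypasses SMADs, had 50.7 and 64.4 CPM against 27.6 and 29.4 CPM (-1.01, SE 0.17). Bambi, a decoy receptor, was higher, with 3.51 and 2.998 CPM against 7.71 and 6.14 CPM (1.09, SE 0.33), as were Zfyve16 (0.34) and Usp15 (0.11) by less.

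Genes known to respond to TGF-β include several of the matrix. Of 26 tested, 11 were lower, 1 was higher and 14 overlapped (27.8% of all tested genes were lower and 27.4% higher), and the median log2 fold change was -0.33. Col1a1, a chain of type I collagen, had 2064 and 1377 CPM in saline and 455 and 572 CPM after treatment (-1.74, SE 0.26). Lox, which crosslinks collagen, had 195 and 144 CPM against 74.0 and 82.6 CPM (-1.12, SE 0.19), and Adam12 had 26.3 and 34.5 CPM against 12.2 and 10.5 CPM (-1.42, SE 0.22). Nox4, an oxidase, was the higher gene, with 5.83 and 6.68 CPM against 11.2 and 8.42 CPM (0.65, SE 0.29). Of the factors of epithelial-mesenchymal transition in the list, Snai1, Snai2 and Zeb1 overlapped between the groups, and Zeb2 was lower, with 73.9 and 88.9 CPM against 58.6 and 62.8 CPM (-0.42, SE 0.15). The early target Junb overlapped, with 314 and 280 CPM against 231 and 303 CPM. These 5 genes were chosen for mention after their values were seen. Of this list 3 genes, Col1a1, Col1a2 and Col3a1, are also fibroblast markers.

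Of the 4 Id genes, which BMP signaling induces, 3 were higher and 0 lower (against 27.4% and 27.8% of all tested genes), with a median log2 fold change of 0.78. Id3 had 50.3 and 30.5 CPM in saline and 111 and 70.5 CPM after treatment (1.17, SE 0.32), and Id1 had 33.2 and 28.6 CPM against 61.5 and 41.5 CPM (0.74, SE 0.23). Id4 was at 1.499 to 3.63 CPM (0.83, SE 0.47), and Id2 overlapped. Of 10 tested ligand genes of the BMP, activin and growth differentiation factor families, 5 were higher and 2 lower, with a median of 0.41. Other genes of BMP signaling were lower, among them the receptors and SMADs Bmpr1a, Bmpr2 and Smad5 given above, and Acvr1 (-0.25) and Smad1 (-0.51), named after their values were seen. Bmp4 had 4.45 and 2.45 CPM against 15.4 and 6.56 CPM (1.66, SE 0.52). Bmp6 had 5.46 and 1.91 CPM against 20.1 and 5.54 CPM (1.79, SE 0.75), and Bmp5 had 1.76 and 2.25 CPM against 6.62 and 2.41 CPM (1.17, SE 0.58). For these 3 ligands treated replicate 1 was the high library, and the lowest log2 fold changes over the alternatives, those without it, were 0.92 for Bmp4, 0.58 for Bmp6 and 0.27 for Bmp5. Inhba, which encodes activin A, had 150 and 156 CPM against 84.5 and 115 CPM (-0.62, SE 0.18), and Bmp7 had 89.8 and 152 CPM against 33.9 and 72.4 CPM (-1.19, SE 0.41). The extracellular antagonists and binders had 5 of 9 lower and 0 higher, led by Fstl1 (-0.74, SE 0.16), Fst, the activin antagonist follistatin (-0.65, SE 0.22), and the matrix proteoglycan Dcn (-0.53, SE 0.24), with a median of -0.58.

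**Figure D5:**
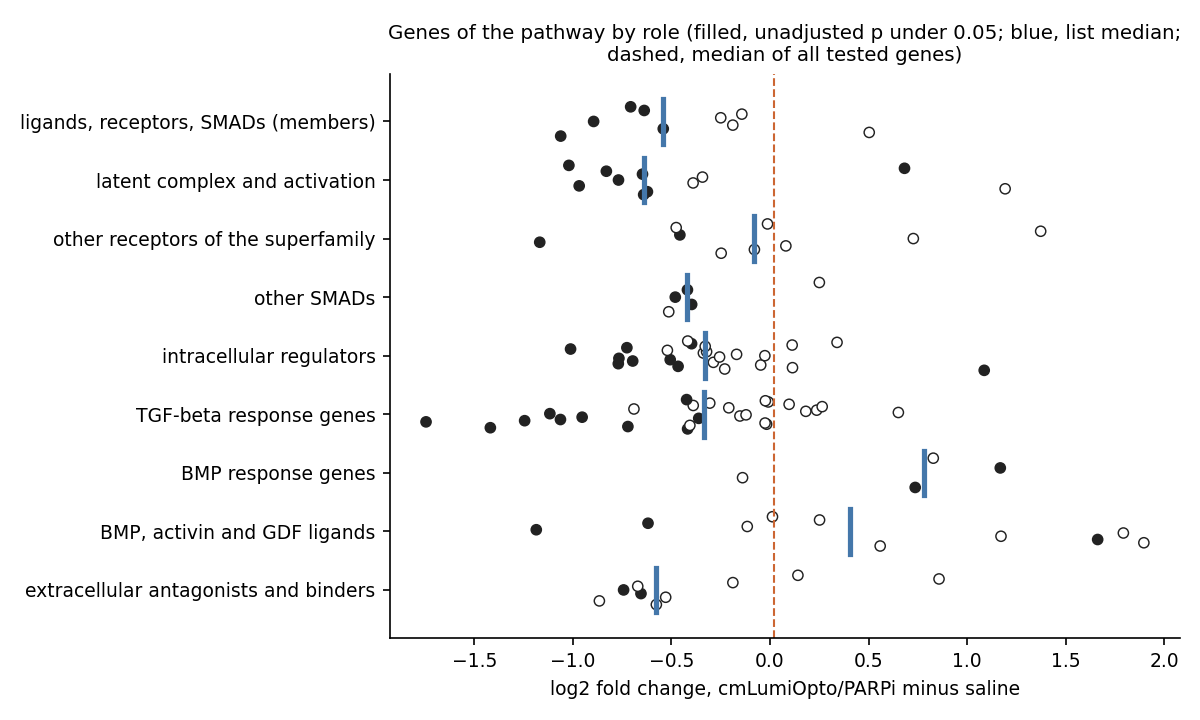
Log2 fold change of each tested gene (points) by its role in the pathway, filled where the unadjusted p was under 0.05, with the median of each list (blue) and of all tested genes (dashed). Medians run from -0.64 in the latent complex list to 0.78 in the Id genes.

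Markers of airway, alveolar and fibroblast cells separated the groups, and most markers of tumor, endothelial, macrophage, neutrophil and T cells overlapped, where 55.2% of all tested genes did not overlap. The 8 airway markers were all higher in both treated libraries, summing to 82.4 to 1155 CPM in saline and 2990 to 5701 CPM after treatment. The 6 alveolar type 1 markers were all higher too (109 to 280 CPM against 440 to 892 CPM), as were 7 of 8 alveolar type 2 markers (464 to 1719 CPM against 2973 to 8328 CPM). The remaining alveolar type 2 marker, Abca3, was lower, with 147 and 129 CPM against 125 and 94.0 CPM. Of 8 fibroblast markers 6 were lower and 2 higher, with sums of 3499 to 5058 CPM against 1665 to 1862 CPM. Pdgfra, a receptor of lung fibroblasts, had 212 and 243 CPM against 132 and 144 CPM, whereas Tcf21 and Dpt were higher. Tumor epithelial markers overlapped for 7 of 8 (3011 to 3390 CPM against 2692 to 3850 CPM), as did 6 of 8 endothelial markers (433 to 542 CPM against 437 to 796 CPM). Among macrophage markers 2 of 8 were lower and 1 higher (777 to 1146 CPM against 590 to 616 CPM), and 6 of 8 neutrophil markers overlapped (651 to 1372 CPM against 873 to 1696 CPM). T-cell markers were higher in 1 of 8 cases (21.5 to 56.3 CPM against 34.6 to 113 CPM), B-cell markers in 3 of 5 (2.11 to 4.95 CPM against 8.12 to 11.3 CPM) and cardiac muscle markers in 3 of 7 (92.7 to 102 CPM against 67.9 to 156 CPM). Of the 6 cycling markers 2 were lower and 1 higher (1069 to 1073 CPM against 758 to 977 CPM). No marker was at 0 in every library, Krt5, Dnah5, Myl7 and Nppa were among those at 0 in some, and the part of these shifts in the values of the TGF-β genes was not tested.

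The genes whose pattern over the 4 libraries lay nearest to that of Smad3, by Euclidean distance of centered log2 CPM among all tested genes, were Sh3pxd2b (distance 0.06), Runx1 (0.09) and Gm26703 (0.10). Sh3pxd2b had 273 and 315 CPM in saline and 116 and 164 CPM after treatment, and Runx1 had 179 and 200 CPM against 75.1 and 104 CPM. Gm26703 stayed under 1 CPM. With 4 libraries many genes share such a pattern.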

How the data were processed

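Lung RNA carrying 4T1 metastases was sequenced in 2 saline and 2 cmLumiOpto/PARPi libraries. The authors selected polyadenylated RNA, mapped the reads with HISAT2 and deposited raw counts of reads per gene, with gene length. The counting tool and its strand setting are not given in the sources used here, so reads of a gene and its antisense partner cannot be told apart. The study's methods name GRCm38 and the submitters' processing notes mm39. Only 2.83% of 52073 genes had the position of GENCODE M21, so GRCm38 positions come from that annotation. The paper names lung tissue with metastases and the labels tumor cells.

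The deposited counts were scaled to CPM by TMM, and log2 CPM took a prior count of 2. Differences were tested over all 15167 genes that passed filterByExpr (minimum count 10) with edgeR 4.0.16 (glmQLFit with its legacy option, glmQLFTest, Benjamini-Hochberg adjustment, threshold 0.05), run in R 4.3.3. The SE is the size of the log2 fold change divided by the square root of F. CPM per kilobase used the deposited gene length. In a simulation of this comparison over 15167 genes, of which 200 had a true log2 difference of 2 in size, the test recovered 77.5% and 13.4% of its calls were false. Every member had a smaller log2 fold change, Smad3 at -1.06 being the largest in size, so this recovery does not apply to them. The share of false calls was above the threshold of 0.05. Simulated counts were drawn independently for each gene from the saline means and the fitted dispersions. The same test called 0 genes in the real libraries, so the simulation does not calibrate this comparison. Alternatives were DESeq2 1.42.0, other scalings and filters, a length offset (loess span 0.5), the replicate block, and leaving out each library. Replicates were not duplicate deposits, since their counts differed beyond sampling noise (chi-square per degree of freedom 26.1 in saline, 44.9 treated), and nothing says whether they came from separate mice, so p-values measure the spread between these libraries only. Values of some genes are not reported here. The members and lists were chosen with earlier results of these data known. All 9 members were named and, of each list, up to 3 genes a direction with the smallest p whose groups did not overlap, plus the 3 genes nearest in pattern to the member with the smallest p. Outside this rule Acvr1, Acvrl1, Eng, Id2, Junb, Smad1, Smad9, Snai1, Snai2, Zeb1, Zeb2 and the cell type markers named were added after their values were seen.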

Additional observations from a re-analysis of the deposited data

How the results depend on the processing

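Over 13 alternatives, the 117 recomputed log2 fold changes of the 9 genes kept their direction in all cases but 1, Smad6 without cmLumiOpto/PARPi replicate 1 (-0.47), while without replicate 2 of that group it was 1.06. Tgfb2 ranged from -0.97 to -0.83 (edgeR or DESeq2 adjusted p from 0.0109 to 0.427), Tgfbr2 from -0.71 to -0.49 (0.00442 to 0.444), Tgfbr3 from -0.88 to -0.54 (0.00361 to 0.444), Smad3 from -1.36 to -0.83 (2.4e-06 to 0.418) and Smad7 from -0.61 to -0.47 (0.0450 to 0.452). DESeq2 called 1011 genes, 4 of the 9 and 21 of the other pathway genes. Without the filter on low counts, edgeR called 2000, 4 and 34. RLE factors, library totals only, a minimum count of 30, the fit without the legacy option and the length offset each gave 0 of the 9. Libraries with the same sample number share only that number, though their deviations correlated (Spearman's rho = 0.298 over 15167 genes, which are not independent replicates). With the sample number as a replicate block 1822 genes, 5 of the 9 (Smad7 added) and 33 of the other pathway genes were called, and with the block and the length offset together 1234, 5 and 27. The cause of these higher counts was not tested. Leaving out each library gave 0 to 31 called genes (31 without saline replicate 1, 9 without saline replicate 2, 2 without cmLumiOpto/PARPi replicate 1) and 0 of the 9. Genes at an unadjusted p under 0.05 numbered 1727 to 3464 in these fits, which assume that the lone library of a group varies like the other group, the lowest without saline replicate 2 and 1840 without cmLumiOpto/PARPi replicate 1, against 3221 with all libraries. In the alternatives that kept every library, 5 of the 9 genes had an unadjusted p under 0.05, or 6 with the block and the length offset together. The count over all 15167 tested genes moved as well. It was 2187 with the length offset, 4639 with the block and 4018 with both, so the step from 5 to 6 is no result about the members. In these fits 6 of the 9 were lower without overlap, or 5 with library totals only. With the main scaling 27.8% of all tested genes were lower in this way. Overlap was not compared where a group kept a lone library, which separates more easily. Depth limits the genes near the floor, such as Smad9 and Gm26703.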
